A study of Mus musculus with 8 samples.

Results

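The genes described here act in vascular calcification, the deposition of mineral in the arterial wall. They are 10 genes taken from a list of osteogenic transcription factors (Runx2, Sox9, Msx2), a bone matrix protein and the mineralising phosphatase (Bglap, Alpl), pyrophosphate suppliers (Enpp1, Ank), a phosphate transporter (Slc20a1) and secreted inhibitors (Mgp, Tnfrsf11b). A gene was a member if the Entrez identifier of a deposited row mapped to its symbol, and 10 of 10 were found among 25268 named genes. RNA came from cultured smooth muscle cells of the mouse aorta, which form the contractile media of the vessel, and each sample was hybridised to 1 Affymetrix array. There were 4 arrays titled AdN5 and labelled NFAT5 overexpression and 4 arrays titled AdPl and labelled control. Every culture received an adenovirus (24 h) followed by 72 h with 10 µg/ml cholesterol, so no array shows cells without virus or without cholesterol. The sources used here name neither the promoter that drives the viral insert nor whether replicates were separate cultures, so the p-values measure a spread between arrays that may be technical.

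Smooth muscle cells under mineral stress can take on features of bone and cartilage cells. Runx2, Sox9 and Msx2 are transcription factors of that change, and osteocalcin (Bglap) and tissue-nonspecific alkaline phosphatase (Alpl) are products of it. Pyrophosphate blocks the growth of hydroxyapatite crystals: ENPP1 makes it from extracellular ATP, ANK lets pyrophosphate or its source, ATP, leave the cell, and alkaline phosphatase splits it into phosphate. SLC20A1 (PiT-1) brings phosphate into the cell, matrix Gla protein (Mgp) keeps the arterial media free of mineral, and osteoprotegerin (Tnfrsf11b) is the decoy receptor of RANKL.

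Across the series the arrays correlated at 0.990 to 0.993 within groups and at 0.989 to 0.992 between them, over genes. On the first principal component (22.1% of the variance) the AdN5 arrays lay at 7.51 to 19.9 and the AdPl arrays at -17.2 to -6.93. On the second (17.0%) AdN5 replicate 4 (24.9) and AdPl replicate 3 (14.4) lay above the other arrays (-19.7 to 0.113). AdN5 replicate 3 was at the low end of that range. Counts without the pair of AdN5 replicate 4 and AdPl replicate 3 are given where they differ. Nfat5 itself did not bear out the AdN5 label: its log2 level was 7.06, 6.95, 6.98 and 6.88 on the AdN5 arrays and 7.06, 7.22, 7.11 and 7.25 on the AdPl arrays, a log2 fold change of -0.19 ± 0.078 (SE; adjusted p = 0.357, limma). Where its probes lie is not given here, so they may not read a viral coding insert, and the groups are named by their titles below. Of the smooth muscle markers 7 of 7 were measured, and Acta2, the smooth muscle actin gene, had a mean log2 level of 11.74 on the AdN5 arrays and 12.04 on the AdPl arrays. Of 6 measured osteoblast markers 5 lay under the median probe set (3.76), while Col1a1, a collagen gene that fibroblasts and smooth muscle cells also express, was bright (11.91 in AdN5, 12.09 in AdPl). The bone matrix genes Ibsp (2.62 in AdN5, 2.56 in AdPl) and Dmp1 (2.16 in AdN5, 2.12 in AdPl) lay near or under the lower quartile of all probe sets (2.50).

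No member passed the test between the groups. Of 10 members, 0 reached an adjusted p under 0.05 in limma, a linear model with a moderated variance fitted to all 25268 genes with Benjamini-Hochberg adjustment, against a background of 0.788% of all genes. At an unadjusted p under 0.05 there were 4 members (background 12.6%). Among these, 2 had lower values in AdN5 (Bglap and Alpl, background 6.32%) and 2 had higher values (Ank and Mgp, background 6.3%). The 4 AdN5 arrays did not overlap the 4 AdPl arrays for 2 members (background 8.85%), Ank on the higher side (4.28%) and Alpl on the lower (4.57%). Over the 10 members 5 log2 fold changes were above 0 and 5 below, from -0.56 to 0.31 with a median of -0.022, and the median over all genes was 0.0037. The median size of a change, regardless of sign, was 0.17 on the log2 scale over the members and 0.10 over all genes. Under the median gene level lay 0 of the 10 members and 12634 of all 25268 genes. The backgrounds given here thus include many dimmer genes, and no background matched for level was drawn.

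**Figure D1:**
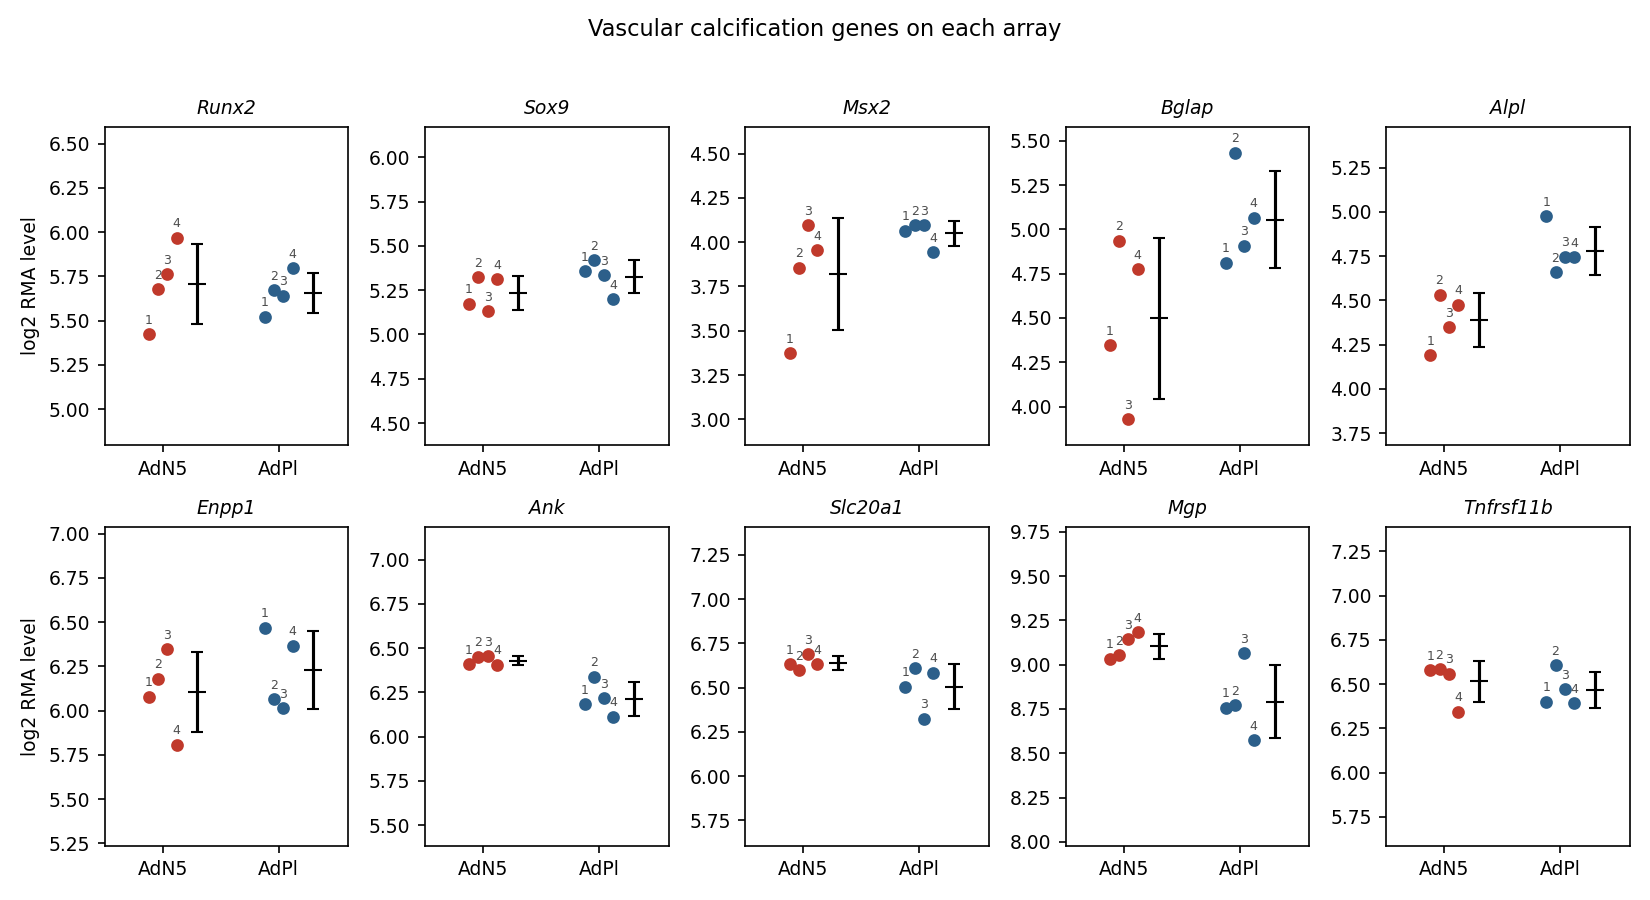
Log2 RMA level (y axis, each panel spanning the same range) of the 10 members on the 4 AdN5 arrays (red) and the 4 AdPl arrays (blue), with the replicate number above each point and the group mean ± SD beside it. The groups are apart for Alpl and Ank. For Mgp and for Slc20a1 1 AdPl array reaches the AdN5 range, for Bglap 1 AdN5 array reaches the AdPl range, and the other members overlap.

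None of the 3 osteogenic transcription factors passed, and the groups overlapped for each of them. Runx2 (Entrez gene 12393), the master regulator of osteoblast formation, had log2 levels of 5.42, 5.68, 5.76 and 5.97 on the AdN5 arrays and 5.52, 5.67, 5.64 and 5.80 on the AdPl arrays. The AdN5 arrays reached both below and above the AdPl arrays, for a log2 fold change of 0.052 ± 0.12 (SE; 95% interval -0.21 to 0.32). This interval spans 0.862 to 1.25 times the AdPl level, and the value ran from -0.035 without AdN5 replicate 4 to 0.15 without AdN5 replicate 1. Sox9 (Entrez gene 20682), the chondrogenic factor, had 5.17, 5.32, 5.13 and 5.31 in AdN5 against 5.36, 5.42, 5.33 and 5.20 in AdPl. Its groups overlapped, with a log2 fold change of -0.093 ± 0.083 (95% interval -0.28 to 0.093), and -0.058 without AdN5 replicate 3. Msx2 (Entrez gene 17702), a homeobox factor downstream of BMP signals, had 3.37, 3.86, 4.10 and 3.96 in AdN5 against 4.07, 4.10, 4.09 and 3.94 in AdPl. AdN5 replicate 1 was the low array here. The log2 fold change was -0.23 ± 0.14 with all arrays and -0.080 without that array, and these levels lie close to the median probe set (3.76).

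Osteocalcin and alkaline phosphatase, the products of the osteogenic programme, had the 2 most negative values among the members. Bglap (Entrez gene 12096) had log2 levels of 4.35, 4.94, 3.93 and 4.78 on the AdN5 arrays and of 4.81, 5.43, 4.91 and 5.07 on the AdPl arrays. AdN5 replicate 2 lay within the AdPl range, while the other AdN5 arrays lay below it. The mean was 4.50 ± 0.45 in AdN5 and 5.06 ± 0.27 in AdPl (SD, n = 4 each), a log2 fold change of -0.56 ± 0.22 (SE) or 0.679 of the AdPl level, with a 95% interval from -1.05 to -0.066. It did not pass (adjusted p = 0.330 in limma, unadjusted p = 0.0302, exact two-sided permutation p = 0.0857). Its value ranged from -0.70 without AdN5 replicate 2 to -0.37 without AdN5 replicate 3. In bulk RNA, fewer cells expressing a gene and less RNA per cell cannot be told apart. The mouse genome holds closely related osteocalcin copies, and probes for Bglap may also read Bglap2, which was not analysed here. Bglap3, another gene of the cluster, was dim (2.51 in AdN5, 2.60 in AdPl) with a log2 fold change of -0.091 ± 0.10.

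Alpl (Entrez gene 11647) had log2 levels of 4.19, 4.53, 4.35 and 4.48 on the AdN5 arrays and of 4.97, 4.66, 4.75 and 4.75 on the AdPl arrays. Every AdN5 array lay below every AdPl array. Means were 4.39 ± 0.15 in AdN5 and 4.78 ± 0.14 in AdPl (SD, n = 4 each). This is a log2 fold change of -0.39 ± 0.10 (SE; 95% interval -0.62 to -0.16), or 0.761 of the AdPl level. Its unadjusted p of 0.00354 ranked 612 of all genes, which gave an adjusted p of 0.146 in limma. The exact two-sided permutation p was 0.0286, the smallest that 70 assignments of 4 against 4 arrays can give, and such p-values were computed for 10 members without adjustment.

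The promoter of Bglap is shown because RUNX2 is known to drive this gene through a site of the RUNX type. The window runs from 250 bases before the annotated start to 50 after it, from RefSeq on GRCm38.p6, at chr3:88384417-88384716 on the minus strand, and capitals mark the RUNX core ACCACA and the TATA motif TATAAA.
Bglap: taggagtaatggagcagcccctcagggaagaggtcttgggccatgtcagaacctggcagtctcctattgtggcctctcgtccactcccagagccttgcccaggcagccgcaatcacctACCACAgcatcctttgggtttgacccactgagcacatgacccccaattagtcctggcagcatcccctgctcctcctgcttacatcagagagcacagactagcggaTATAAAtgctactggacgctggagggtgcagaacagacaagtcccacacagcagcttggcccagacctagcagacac
The RUNX core begins 132 bases before the start and the TATA motif 27 bases before it. Windows were held for 7 of the 10 members, 9 windows in all, and those of Sox9, Mgp and Tnfrsf11b were not analysed here. On either strand ACCACA was found in the windows of 4 of the 7 (Bglap, Runx2, Enpp1 and Slc20a1), and in 16.8% of all 32851 windows of the same length. The members that hold it did not share a direction: their log2 fold changes were -0.56 for Bglap, -0.13 for Enpp1, 0.052 for Runx2 and 0.13 for Slc20a1. The core of the NFAT and NFAT5 binding element, TGGAAA, was found on either strand in 0 of the 7 members and in 21.4% of all windows. TATAAA was found on either strand for 3 of the 7 (Bglap, Alpl and Slc20a1) and in 13.6% of all windows. The match of Slc20a1 begins 1 base before its start. That of Alpl is on the opposite strand, 192 bases before a second annotated start that lies 29909 bases inside the gene. No match of one motif overlapped a match of another in these windows. Members are counted here as genes, some with several windows, while the shares over all count windows, so the 2 measures are unlike. Bglap was shown for a known site, so its RUNX match was not a new finding. A match of letters is not a binding site, and a missing match covers only this window.

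Stretches of 30 bases around the RUNX core in the other members are given 5′ to 3′ on the strand of the gene, with the core in capitals, to show the bases that flank it. They come from chr17:44814690-44814719 and chr17:44814587-44814616 (Runx2, minus strand), chr10:24712286-24712315 (Enpp1, minus strand) and chr2:129198684-129198713 (Slc20a1, plus strand).
Runx2, 80 bases before the start: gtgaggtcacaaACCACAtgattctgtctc
Runx2, 23 bases after the start: gcctcacaaacaACCACAgaACCACAagtg
Enpp1, 144 bases before the start: cactctttgcagACCACAcagcgattccag
Slc20a1, 77 bases before the start: gcccgaccagccTGTGGTtgcgtcacatcg
The Runx2 window is set on an annotated start 170 bases inside the outermost 5′ end of the gene, so its first stretch lies within the annotated gene. The second stretch of Runx2 holds 2 copies, and that of Slc20a1 holds the core on the opposite strand.

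**Figure D2:**
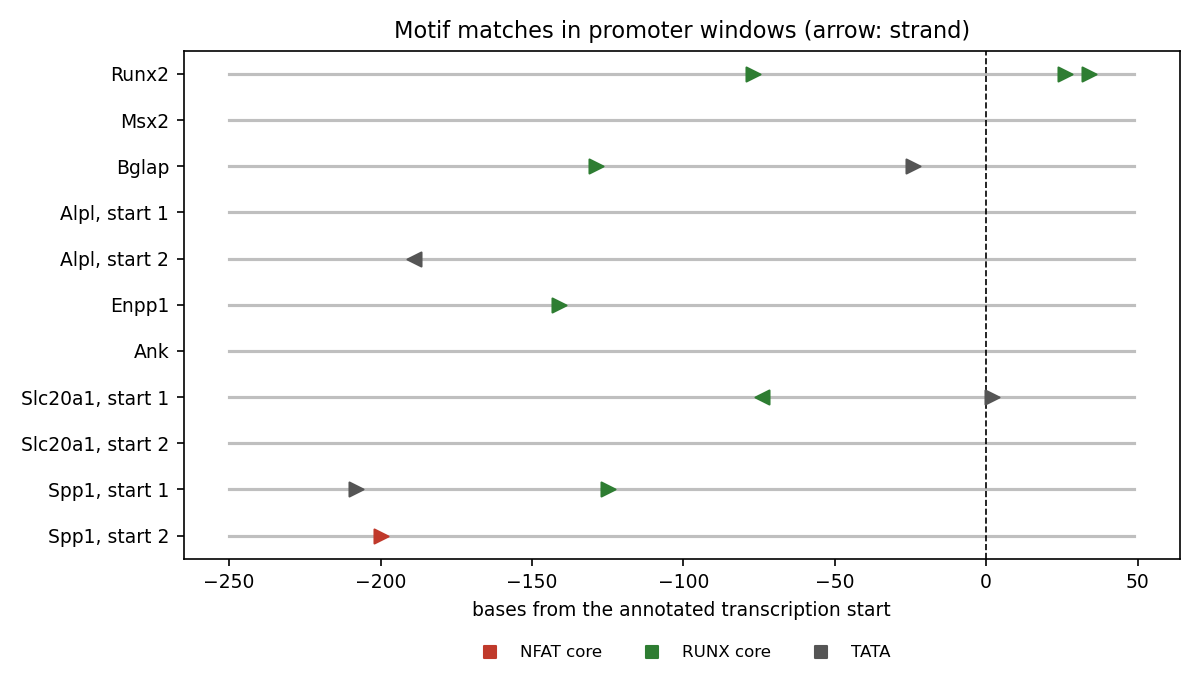
Positions of the NFAT core (red), the RUNX core (green) and the TATA motif (grey) in promoter windows of 7 members and of Spp1, in bases from the annotated start (dashed line), with arrows pointing along the matched strand. The RUNX core appears in 4 members and Spp1, the NFAT core only at the second start of Spp1 among the windows drawn.

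Of the genes that supply extracellular pyrophosphate, Ank separated the groups and Enpp1 did not. Ank (Entrez gene 11732) had log2 levels of 6.41, 6.45, 6.45 and 6.41 on the AdN5 arrays against 6.18, 6.34, 6.22 and 6.11 on the AdPl arrays. Every AdN5 array lay above every AdPl array, in a narrow band. The log2 fold change was 0.22 ± 0.074 (SE; 95% interval 0.051 to 0.38), which is 1.16 times the AdPl level, without passing (adjusted p = 0.259 in limma, exact permutation p = 0.0286). Enpp1 (Entrez gene 18605) had 6.08, 6.18, 6.35 and 5.81 in AdN5 against 6.47, 6.07, 6.01 and 6.37 in AdPl. Its groups overlapped, with a log2 fold change of -0.13 ± 0.14 (95% interval -0.44 to 0.19). With an array left out it ran from -0.21 without AdN5 replicate 3 to -0.026 without AdN5 replicate 4. The difference between the changes of these genes was not tested.

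Slc20a1 (Entrez gene 20515), the sodium-dependent phosphate importer, had log2 levels of 6.63, 6.60, 6.69 and 6.63 on the AdN5 arrays and of 6.51, 6.61, 6.32 and 6.58 on the AdPl arrays. AdPl replicate 2 reached the lower end of the AdN5 range, and AdPl replicate 3 was the low array. The log2 fold change was 0.13 ± 0.083 (SE; 95% interval -0.054 to 0.32), and 0.071 without AdPl replicate 3.

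Among the secreted inhibitors Mgp was the member with the most positive value. Mgp (Entrez gene 17313) had log2 levels of 9.03, 9.05, 9.14 and 9.18 on the AdN5 arrays and of 8.76, 8.77, 9.07 and 8.57 on the AdPl arrays. AdPl replicate 3 lay among the AdN5 arrays, and the other AdPl arrays lay below them. Means were 9.10 ± 0.071 in AdN5 and 8.79 ± 0.20 in AdPl (SD, n = 4 each), a log2 fold change of 0.31 ± 0.11 (SE), 1.24 times the AdPl level, with a 95% interval from 0.073 to 0.55. It did not pass (adjusted p = 0.259 in limma, exact permutation p = 0.0857), and the value was 0.40 without AdPl replicate 3. Tnfrsf11b (Entrez gene 18383) had 6.58, 6.58, 6.56 and 6.34 in AdN5 against 6.40, 6.61, 6.47 and 6.39 in AdPl. AdN5 replicate 4 lay below all the other arrays. The log2 fold change was 0.048 ± 0.087 (95% interval -0.15 to 0.24), and it ran from 0.023 without AdPl replicate 4 to 0.11 without AdN5 replicate 4.

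**Figure D3:**
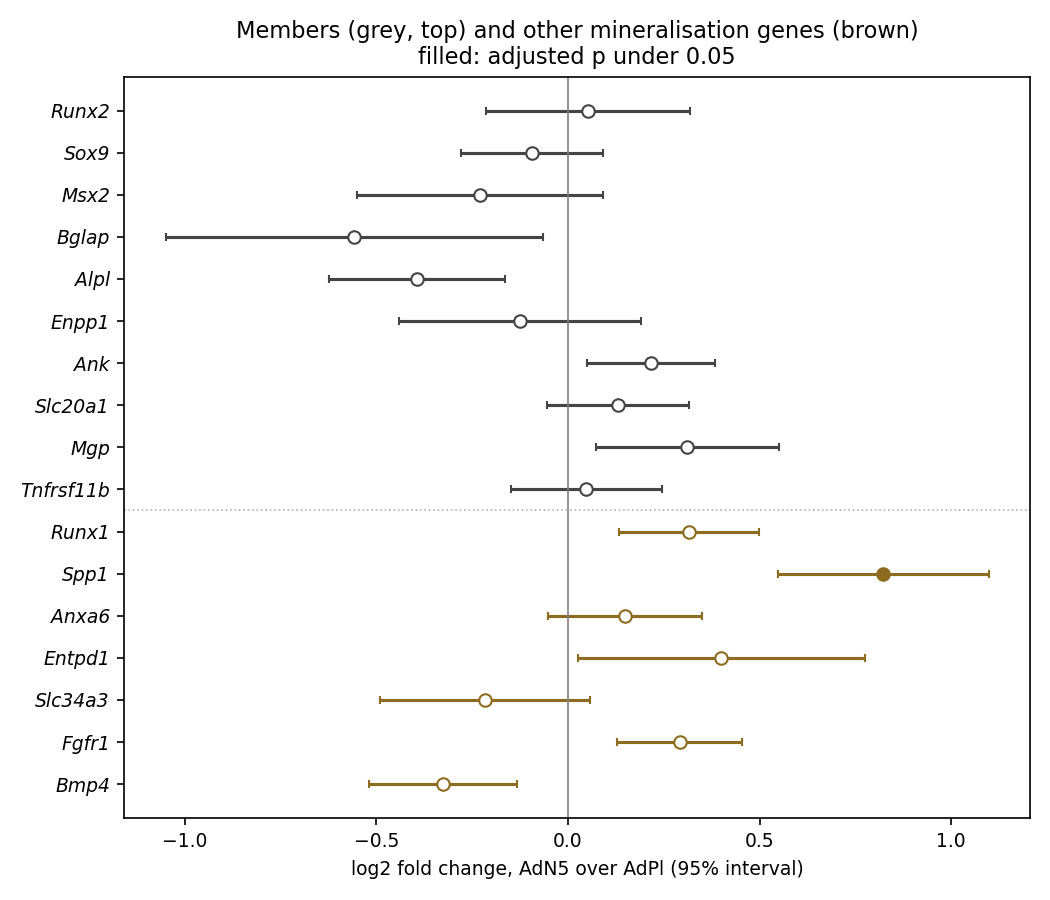
Log2 fold change of AdN5 over AdPl with its 95% interval from limma for the 10 members (grey, above the dotted line) and for 7 other mineralisation genes named by rule (brown). A filled point marks an adjusted p under 0.05, which Spp1 (0.82) is the only one of these 17 genes to reach.

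The members differed in how far replicates scattered. The SD within groups, pooled over AdN5 and AdPl, was 0.37 for Bglap, at the 96.2 percentile of all genes, and 0.069 for Ank, at the 7.46 percentile. For Msx2 it was 0.23, with an SD of 0.31 in AdN5 and 0.072 in AdPl. Within the AdN5 group replicate 1 was the lowest array for 4 members (Runx2, Msx2, Alpl and Mgp) and the highest for 0. Within the AdPl group replicate 2 was the highest for 6 members and replicate 4 the lowest for 5. The smallest standard error of a member's log2 fold change was 0.074 and the largest 0.22. A value of -0.39 ± 0.10, that of Alpl, did not pass at this precision.

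Other genes of mineralisation were counted from a list of 57 genes, of which 56 were measured. In AdN5 1 rose (background for higher genes 0.376%), 0 fell and 55 did not pass, with 27 values above 0, 29 below and a median log2 fold change of -0.014. Without adjustment, 5 genes of the list with higher and 4 with lower values in AdN5 had a p under 0.05 in limma, where the shares over all genes were 6.3% and 6.32%. The gene that rose was Spp1, encoding osteopontin, a phosphoprotein that binds hydroxyapatite and is also secreted by macrophages. Its log2 levels were 7.91, 7.66, 8.29 and 7.96 on the AdN5 arrays and 7.10, 7.20, 7.18 and 7.05 on the AdPl arrays. Every AdN5 array lay above every AdPl array. The level in AdN5 was 1.77 times that in AdPl, a log2 fold change of 0.82 ± 0.12 (SE; 95% interval 0.55 to 1.10; adjusted p = 0.0207 in limma). When arrays were left out singly, the call held in 2 of the 8 fits, those without AdN5 replicate 2 or 3. The adjusted p was 0.0598 and 0.0601 without AdN5 replicate 1 or 4, 0.0723, 0.0632, 0.0594 and 0.0822 without AdPl replicates 1 to 4, and 0.140 without AdPl replicate 3 and AdN5 replicate 4 together, while the log2 fold change stayed between 0.71 and 0.92.

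The promoter of Spp1 is printed as that of the gene that passed, at chr5:104434861-104435160 on the plus strand of GRCm38.p6 (RefSeq), with the same motifs in capitals.
Spp1: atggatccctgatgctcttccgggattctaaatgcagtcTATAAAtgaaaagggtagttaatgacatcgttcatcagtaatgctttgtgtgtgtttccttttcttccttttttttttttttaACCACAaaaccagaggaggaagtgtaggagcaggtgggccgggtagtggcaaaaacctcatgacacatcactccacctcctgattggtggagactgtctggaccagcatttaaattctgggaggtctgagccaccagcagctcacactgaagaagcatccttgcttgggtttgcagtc
Its RUNX core begins 128 bases before the start, close to the distance in Bglap (132), and its TATA motif 211 bases before. A second annotated start of Spp1 has an NFAT core 203 bases before it and no RUNX core.

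By the mean of the list, macrophage markers lay higher and fibroblast markers lower on every AdN5 array than on every AdPl array, and neither list mean was tested. The lists were chosen with earlier results of these data known, so their counts are not independent evidence. Under the median gene level lay 1 of 9 macrophage and 2 of 9 fibroblast markers, against 12634 of all 25268 genes. Of 9 measured macrophage markers 9 had a log2 fold change above 0 (51% of all genes) and 3 rose (background for higher genes 0.376%): Adgre1 (0.68), Laptm5 (0.53) and Cd68 (0.52). The mean log2 level of the list ran from 6.24 to 6.44 over the AdN5 arrays and from 5.82 to 6.06 over the AdPl arrays, without overlap. Summed on the linear scale, the list was at 10.27 to 10.46 in AdN5 and 9.79 to 9.96 in AdPl (log2 of the sum). Of 9 fibroblast or adventitial markers 7 were below 0 (49% of all genes) and 1 fell (background for lower genes 0.412%), Ly6c1 (-1.24). The list mean ran from 5.73 to 5.97 in AdN5 and from 6.20 to 6.23 in AdPl. The log2 of its sum ran from 12.85 to 12.99 in AdN5 and from 13.00 to 13.14 in AdPl. Ly6a, the brightest of these markers (mean 12.80 in AdN5, 12.90 in AdPl), sets most of that sum, and its groups overlapped. In bulk RNA, other cells in the culture and expression of these markers by the smooth muscle cells cannot be told apart. The relation of the macrophage and fibroblast lists to the values of Spp1, Bglap, Alpl, Ank and Mgp was not tested. The mean of 6 osteoblast markers ran from 4.07 to 4.15 in AdN5 and from 4.07 to 4.16 in AdPl, and 0 of the 6 passed. Among 8 chondrocyte, 6 osteoclast, 6 endothelial and 7 smooth muscle markers 0 passed as well, and the list means of the groups overlapped for each. The sums, which bright genes set, did not overlap for 3 of these lists. For smooth muscle the log2 of the sum was 11.95 to 12.10 in AdN5 and 12.24 to 12.28 in AdPl (Acta2 at -0.30). Of these 7 markers 4 were nonetheless above 0, and Cnn1 (0.33, not passing) lay higher on every AdN5 array. The sum was 11.85 to 11.97 in AdN5 and 12.01 to 12.15 in AdPl for osteoblast markers (Col1a1 at -0.17). For osteoclast markers it was 9.06 to 9.20 in AdN5 and 9.29 to 9.46 in AdPl (Ctsk at -0.30). Unadjusted p-values under 0.05 were reached by 1 osteoblast, 1 chondrocyte, 2 osteoclast, 2 endothelial and 2 smooth muscle markers in limma, and by 12.6% of all genes.

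**Figure D4:**
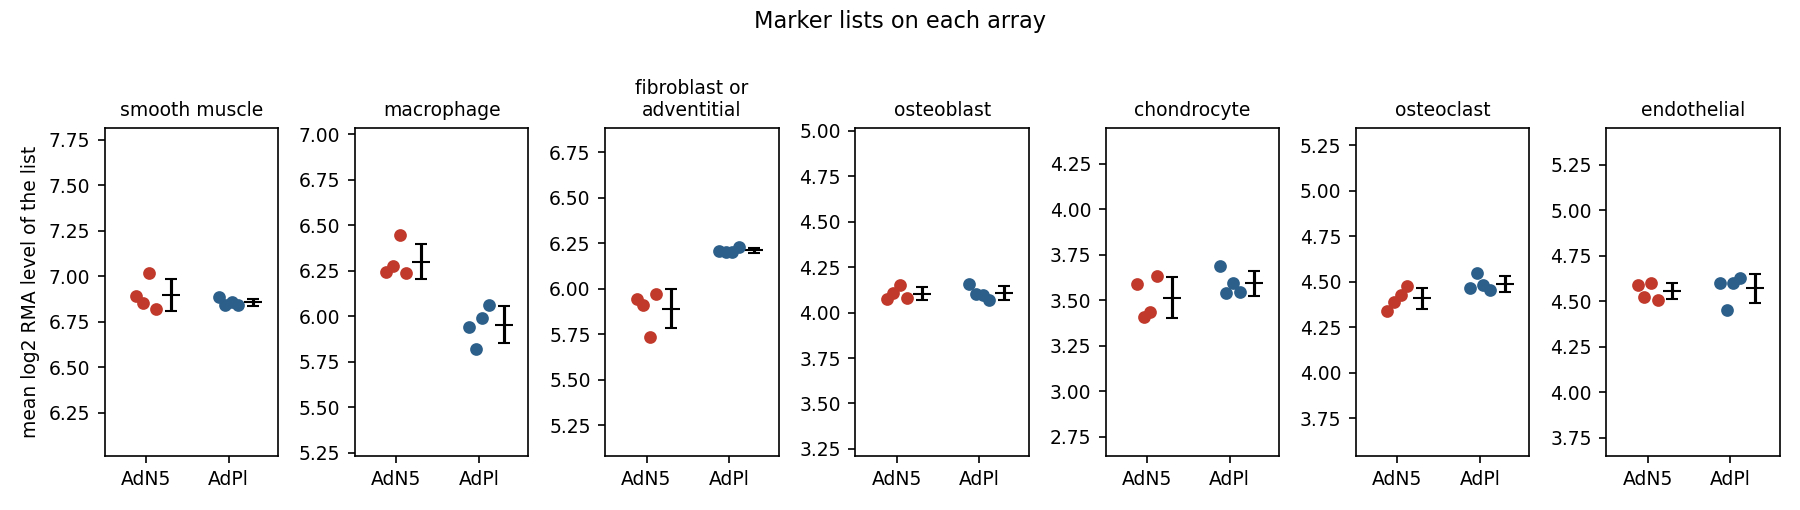
Mean log2 RMA level of each marker list (y axis, each panel spanning the same range) on the 4 AdN5 arrays (red) and the 4 AdPl arrays (blue), with the group mean ± SD. The macrophage list lies higher and the fibroblast list lower on every AdN5 array, and the other 5 lists overlap.

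By role, the other genes of mineralisation stayed mostly within a narrow range of change, and none beside Spp1 passed. Of 11 osteochondrogenic transcription factors 7 were above 0 (median 0.10). Runx1, the haematopoietic relative of Runx2, had the largest value, 0.32 ± 0.081 (SE), with log2 levels of 7.21 to 7.50 in AdN5 and 6.97 to 7.06 in AdPl. Sp7, the osteoblast factor osterix, was dim at 2.92 in AdN5 and 2.79 in AdPl. Among 12 bone and cartilage matrix genes 6 were above 0 and 6 below, with a median of 0.0069. Col1a1, a chain of the main bone collagen, was at -0.17 and the cartilage collagen gene Col10a1 at 0.15. The 5 genes of matrix vesicles, which seed mineral outside the cell, ran from -0.12 to 0.15, with Anxa6, an annexin of the vesicle membrane, at the upper end.

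Of 6 genes of extracellular ATP and pyrophosphate 4 were below 0. Entpd1, the ectonucleotidase CD39, had the largest value, 0.40 ± 0.17 (SE), with means of 5.04 ± 0.23 in AdN5 and 4.64 ± 0.31 in AdPl (SD, n = 4 each) and groups that overlapped. Enpp3, a relative of Enpp1, was at -0.33 and Abcc6, a transporter needed for cellular ATP release, at 0.14. The 5 phosphate transporters ran from -0.22 (Slc34a3, a renal cotransporter that was dim here) to 0.18 (Xpr1, the phosphate exporter), with Slc20a2, the partner of Slc20a1, at 0.072 ± 0.086.

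The 12 inhibitors and genes of the vitamin K and RANK axis had a median of 0.040. Fgfr1, the FGF receptor that works with klotho, had the largest value, 0.29 ± 0.073 (SE), with 8.41 to 8.56 in AdN5 and 8.12 to 8.27 in AdPl. The enzymes behind the vitamin K-dependent carboxylation of Mgp were at 0.069 (Ggcx) and 0.051 (Vkorc1). Tnfsf11, encoding RANKL, the ligand of osteoprotegerin, was dim at 2.92 in AdN5 and 3.15 in AdPl. Of the 5 upstream inducers 4 were below 0. Bmp4, a bone morphogenetic protein, had the largest value there, -0.33 ± 0.086, with 7.73 to 8.03 in AdN5 and 8.20 to 8.31 in AdPl, and Bmp2 was at -0.26 ± 0.096. Neither passed (adjusted p = 0.154 for Bmp4 and 0.283 for Bmp2 in limma).

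**Figure D5:**
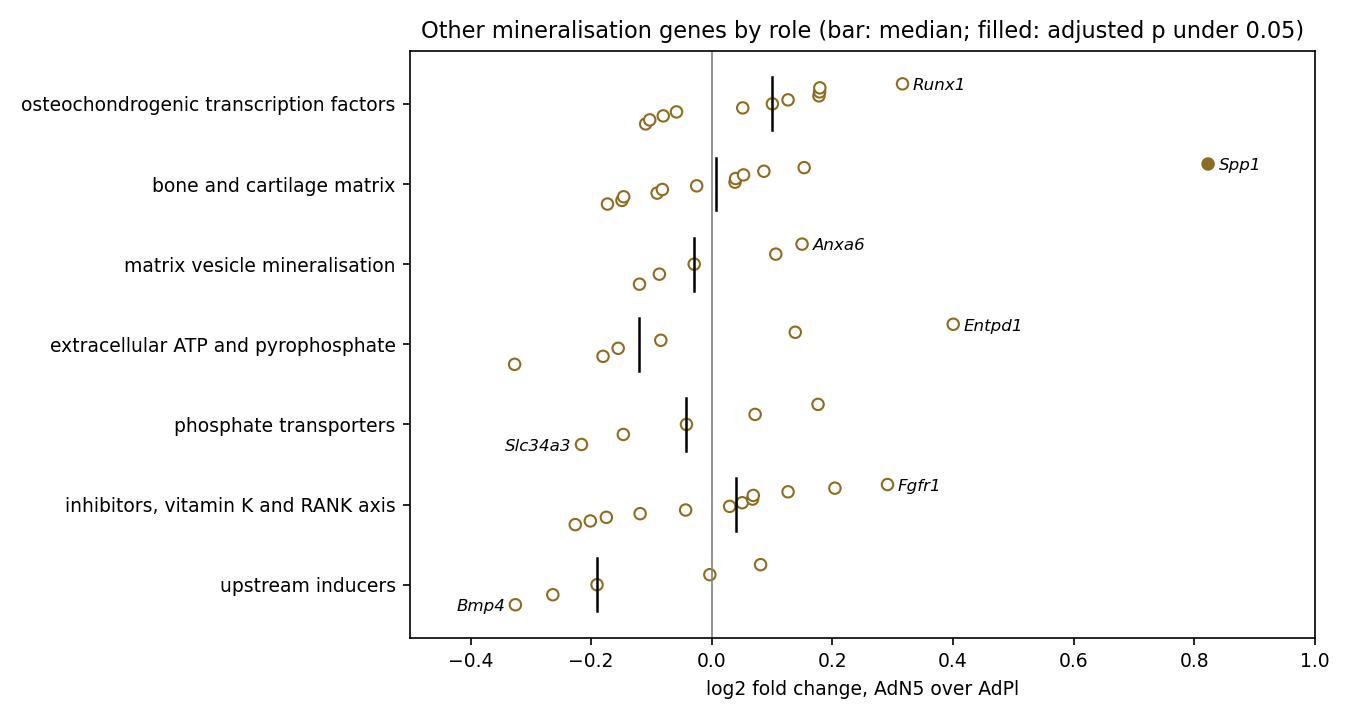
Log2 fold change of AdN5 over AdPl (x axis) for the 56 other mineralisation genes in 7 roles, with a bar at the median of each role. Spp1 (0.82) is the only filled point, which marks an adjusted p under 0.05, and the remaining genes lie between -0.33 and 0.40.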

How the data were processed

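Per the submitters' processing notes, the deposited log2 values were made with RMA (background correction, quantile normalisation, probe set summary), with no version given. The sorted values of the arrays differed by at most 0.00183, so a uniform shift of the whole transcriptome cannot be seen. RMA compresses changes of dim genes. The number of arrays limits the precision. The sources used here do not give the build or annotation behind the probe sets.

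The table held 25428 probe sets keyed by Entrez identifier. The supplied probe table named 24705 with 1 symbol, 0 with several and left 723 unlisted. Of these, 564 were named by identifier through a RefSeq gene table of GRCm38.p6, among them Runx2, Enpp1 and Spp1, and 159 stayed unnamed and were left out. For 24673 listed probe sets that this table also holds, 24673 symbols were the same. The brightest probe set was taken for the 1 symbol with several, leaving 25268 genes.

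The comparison used limma 3.58.1 (R 4.3.3) with lmFit and eBayes over all genes and no covariates, with Benjamini-Hochberg adjustment and a threshold of 0.05. Errors of fold changes are standard errors of that fit. Exact permutation tests were two-sided. The scripts were tested on simulated data. Members and lists were chosen with earlier results of these data known. Genes named are the members, Nfat5, the called gene of the wider list and the largest change in each role. Bglap3, Sp7, Col1a1, Col10a1, Enpp3, Abcc6, Slc20a2, Xpr1, Ggcx and Vkorc1 were named after their values were seen. So were Tnfsf11, Bmp2, Ibsp, Dmp1, Acta2, Cnn1, Ctsk, Ly6a and the called markers. Alternatives covered the replicate block, normalisation, filters, variance models, thresholds, arrays left out, and the genes tested.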

Additional observations from a re-analysis of the deposited data

Results flagged for a closer look

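Tnfrsf11b on AdN5 replicate 4 was far from the other arrays of its group, at a log2 level of 6.34 against 6.56 to 6.58 on the other AdN5 arrays. The gap to its nearest neighbour, as a share of the group's range, exceeded Dixon's 95% critical value. This was 1 case among 36 groups of 4 arrays examined, and chance gives about 1 in 20. Without this array the log2 fold change was 0.11, against 0.048 with all arrays.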

How the results depend on the processing

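The number of members called was 0 under all 21 alternatives. The number at an unadjusted p under 0.05 was 3 or 4 under the 19 that bear on it. Alpl, Ank and Mgp were among them each time. Bglap dropped out without AdN5 replicate 1 or 3 and without AdPl replicate 2 or 4, and Msx2 came in without AdN5 replicate 3. The members' log2 fold changes kept their direction in 206 of 208 values. Many of these could not differ: the replicate block, filters, variance trend, thresholds and choice of genes tested leave a member's log2 fold change unchanged. Only normalisation, array weights and arrays left out could move it. Runx2 turned to -0.035 without AdN5 replicate 4 and to -0.041 without AdPl replicate 3 and AdN5 replicate 4. Its range was -0.035 to 0.15 over fits with an array left out. The lowest adjusted p of a member was 0.0535, for Alpl among genes above the median, and over its alternatives that of Alpl ran up to 0.329. The wider list had 0 called genes with the replicate block, at an adjusted p under 0.01, without AdPl replicate 3 and AdN5 replicate 4, and in the genes of the probe table alone (which does not hold Spp1; an alternative chosen after seeing the data, as was testing all probe sets). It had 3 among genes above the median (Runx1, Spp1 and Fgfr1), 5 with a variance trend and robust estimation (these, Col1a1 and Bmp4), and 0 to 1 with an array left out. Over all genes 199 were called, against 14 with the replicate block, 542 among genes above the median, 812 with the variance trend and robust estimation, 46 at an adjusted p under 0.01, 374 under 0.10, 26 without the pair of arrays and 58 to 91 with an array left out. The replicate numbers did not pair the arrays: deviations of same-numbered arrays correlated at -0.080 to 0.055, those of other pairs at -0.071 to 0.15, and 1 of 4 AdN5 arrays correlated best with its own number. The adjusted p of Spp1 ran from 0.000478 to 0.140 over its alternatives. Nfat5 kept its direction and did not pass under any of the 21 (adjusted p 0.149 to 0.561).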
